A study of Mus musculus with 14 samples.

Results

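The peaks described here lay at 10 mouse genes of the NF-κB pathway, which encode the 5 subunits of the transcription factor (Nfkb1, Nfkb2, Rel, Rela and Relb) and 5 of its inhibitors and regulators (Nfkbia, Nfkbie, Nfkbiz, Bcl3 and Tnfaip3). A peak was assigned to a gene when it overlapped the RefSeq span of that gene extended by 20 kb on each side. This rule found 164 of the 158488 peaks deposited in 14 lists, at 10 of 21774 protein-coding genes. Where peaks of different lists overlapped by at least 1 bp they were joined, which gave 117 regions at the 10 genes among 117293 in all. No peak lay in the windows of more than 1 of these genes.

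The lists came from chromatin immunoprecipitation with sequencing (ChIP-seq) in cells made from a mouse embryonic stem cell line of strain 129 that carries a GFP reporter of Brachyury. They covered mesoderm (MES, Brachyury-GFP positive, Flk1 negative), hemangioblasts (HB, positive for both), hemogenic endothelium (HE, Tie2 and cKit positive, CD41 negative), hematopoietic progenitors (HP, CD41 positive) and macrophages (MAC, CD11b positive). Antibodies to C/EBPβ (MES, HB, HE, HP and MAC), ELK4 (MES), GATA2 (HB and HP), GATA1 and GFI1B (HP), RUNX1 (HP and MAC) and PU.1, the product of Spi1 (HP and MAC), were used, with 1 list for each factor and stage. All cells derived from the same reporter line, and carrier mRNA and histone were added to the immunoprecipitation of the scarce HE cells. With 1 list a group there was no spread between replicates, so every difference between lists below is a description with no test. The lists hold positions of 400 bp peaks with no height or score, and the p-value cutoff was chosen by eye for each list, so the length of a list does not measure the amount of binding. The stages were taken as labelled, since binding lists hold no expression of marker genes.

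NF-κB proteins act as pairs of subunits that are kept in the cytoplasm by IκB proteins. Bacterial products and cytokines trigger the destruction of IκB, after which the dimers enter the nucleus and bind κB sites. Many of the genes that dimers switch on encode subunits and inhibitors of the pathway itself, so that the response feeds back on its own components. Macrophages are a main site of this response, and PU.1 and C/EBPβ are the factors best known for shaping the regulatory regions that macrophages use.

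Of 140 combinations of gene and list, 37 held at least 1 peak. The MAC and HP lists gave 162 of the 164 peaks (98.8%), close to their share of all peaks deposited (98.3%). MAC PU.1 contributed 77 peaks and MAC C/EBPβ 61, together 84.1% of the 164, while the same lists made up 87.3% of all peaks deposited. HP PU.1 contributed 14 (8.54%, against 6.90% of all peaks), and 12 came from the other 11 lists (7.32%, against 5.81%). These 12 lay at 7 of the genes, and 33.3% of coding genes had a peak in any of those 11 lists.

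**Figure D1:**
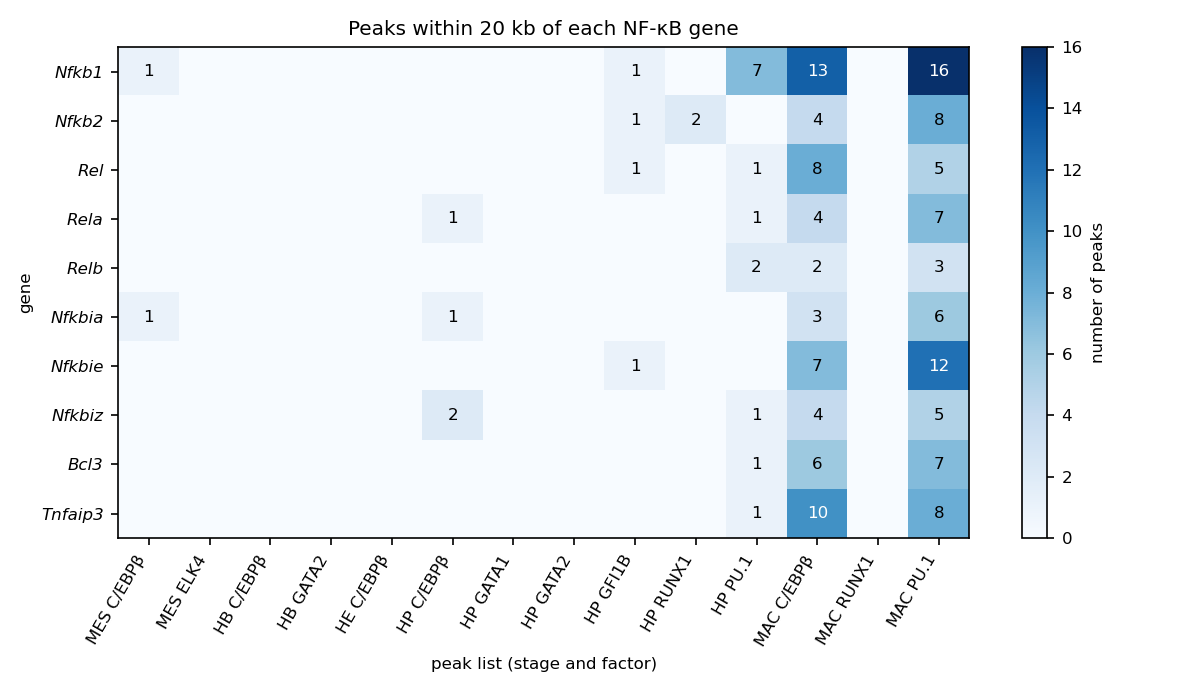
Number of peaks within 20 kb of each NF-κB gene (rows) in each of the 14 lists (columns, by stage and factor), with the count printed where it is above 0. The columns of MAC PU.1 and MAC C/EBPβ are filled for all 10 genes, HP PU.1 for 7, and 7 columns are empty.

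All 10 genes had a MAC PU.1 peak, where 79.1% of coding genes had one, and all 10 had a MAC C/EBPβ peak, where 73.8% did. HP PU.1 peaks lay at 7 of the 10, against 38.2% of coding genes. HP C/EBPβ peaks lay at 3 (Rela, Nfkbia and Nfkbiz; 14.8% of coding genes), and HP GFI1B peaks at 4 (Nfkb1, Nfkb2, Rel and Nfkbie; 11.8%). HP RUNX1 was found at Nfkb2 alone, with 7.79% of coding genes having such a peak, and MES C/EBPβ at Nfkb1 and Nfkbia, with 6.47%. The HP RUNX1 list held 977 peaks and the MES C/EBPβ list 1177.

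The remaining 7 lists had no peak at any of the 10 genes, and they were the shortest deposited. They held 715 peaks (HB C/EBPβ), 530 (HP GATA2), 524 (MES ELK4), 250 (HP GATA1), 132 (HE C/EBPβ), 97 (HB GATA2) and 72 (MAC RUNX1). Over all coding genes, 4.66% had a peak of MES ELK4, 4.24% of HB C/EBPβ, 3.36% of HP GATA2, 1.75% of HP GATA1, 0.684% of HE C/EBPβ, 0.478% of MAC RUNX1 and 0.363% of HB GATA2. At shares this low, an empty column for 10 genes is near the background, and a site missing from a list is not thereby shown to be unbound. Along the C/EBPβ lists from MES to MAC, the number of the 10 genes with a peak was 2, 0, 0, 3 and 10. The shares of all coding genes in the same order were 6.47%, 4.24%, 0.684%, 14.8% and 73.8%.

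Peaks near the start sites of the genes often held a κB sequence. Each of the 10 genes had a MAC PU.1 peak centred within 2 kb of at least 1 of its transcription start sites (TSS), against 50.0% of coding genes. The same was true of 8 genes for MAC C/EBPβ, all but Nfkb1 and Rel (36.6% of coding genes), and of 4 for HP PU.1, namely Nfkb1, Rel, Relb and Tnfaip3 (9.40%). At each of the 10 genes, such a MAC PU.1 peak also contained a match to the κB consensus on either strand. This was the case for 9.67% of all coding genes and for 19.3% of the 10891 coding genes with a MAC PU.1 peak near a start site. Of the 19 MAC PU.1 peaks within 2 kb of the genes' own start sites, 13 (68.4%) held a match, at 15 separate places. Of the matches inside these peaks, the one nearest to a start site is shown for each gene, since the count rests on these sequences. Each is given on the plus strand of GRCm38 with the κB match in capitals.
Nfkb1 (chr3:135691497-135691526): cttcctggctGGAAATTCCCactgacgtcg
Nfkb2 (chr19:46305695-46305724): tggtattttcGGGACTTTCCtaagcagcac
Rel (chr11:23771521-23771550): atttgcatacGGGGACCCCCgcagccttat
Rela (chr19:5637888-5637917): ggcctgcggcGGAATCTCCCccctccccgc
Relb (chr7:19628361-19628390): tgatgcctcaGGAAAACCCCcgtctccgtt
Nfkbia (chr12:55492901-55492930): ttctttccctGGGGTTTCCCaccgggcgat
Nfkbie (chr17:45555584-45555613): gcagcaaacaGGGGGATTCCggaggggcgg
Nfkbiz (chr16:55821687-55821716): ggggggtggaGGGAAGTCCCtccccatcct
Bcl3 (chr7:19822734-19822763): gccgggcagcGGGACTTCCCctgccgccga
Tnfaip3 (chr10:19015403-19015432): ttgccaacagGGGGATTTCCgatggaaatt

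These matches lay in different parts of the genes. Distances along a gene are counted from its most upstream curated start site, which at Nfkb1, Nfkb2, Rela, Nfkbiz and Bcl3 lies inside the RefSeq span of the gene. Those of Nfkb1 and Bcl3 fell in the 5′ UTR, 36 bp and 7 bp downstream of that start, and that of Nfkb2 14 bp from an internal start site, in the UTR of the transcript that begins there. Those of Rela and Relb were intronic, 361 bp and 1063 bp downstream of the start. The match of Nfkbiz was intronic for the curated transcripts and 437 bp from the nearest start site, an internal one. Upstream of the start lay those of Rel at 566 bp, Nfkbia at 268 bp, Nfkbie at 102 bp and Tnfaip3 at 7 bp. The matches of Rel, Relb and Tnfaip3 were already covered by the HP PU.1 peak, and those of Nfkbie and Tnfaip3 also by a MAC C/EBPβ peak. A match of letters is a description and does not show that NF-κB was bound, for which no list was analysed here.

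The share of MAC PU.1 peaks with a κB match was higher near a start site than farther away. Among all MAC PU.1 peaks at the 10 genes, 18 of 77 (23.4%, exact 95% interval 14.5 to 34.4%, counting error only) held the consensus, against 9.15% of the whole list. Within 2 kb of any coding TSS the share was 15 of 24 (62.5%, 40.6 to 81.2%), against 13.6% of the list at that distance, and farther away it was 3 of 53 (5.66%, 1.18 to 15.7%), against 8.17%. For MAC C/EBPβ the shares were 4 of 18 (22.2%, 6.41 to 47.6%) near start sites and 4 of 43 (9.30%, 2.59 to 22.1%) elsewhere, against 11% and 6.69% of the list. Of the 14 HP PU.1 peaks, 4 held a match (28.6%, 8.39 to 58.1%), against 9.70% of that list. Near start sites 3 of 5 did (interval 14.7 to 94.7%), against 12.7%, and farther away 1 of 9 (11.1%, 0.281 to 48.2%), against 9.02%. Near start sites, the intervals for MAC PU.1 and HP PU.1 lay above the values of their lists, with only 5 peaks for HP PU.1. That for MAC C/EBPβ contained its list value. Each of the 5 HP PU.1 peaks lay on a MAC PU.1 peak, so HP PU.1 adds no separate sites to this comparison. The split was added after values were seen, and no difference between lists was tested. These intervals treat peaks as independent, although several peaks belong to the same gene and some overlap.

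**Figure D2:**
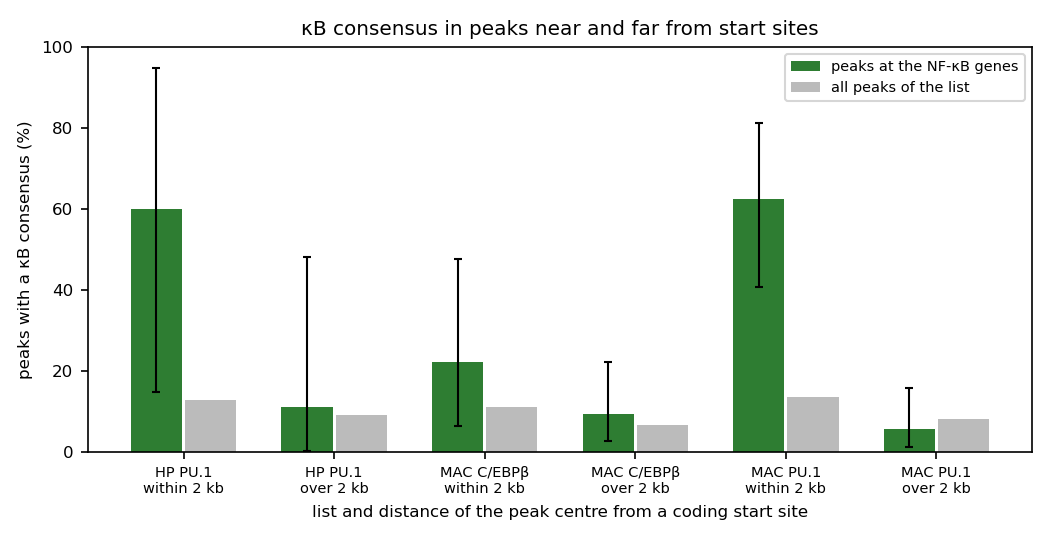
Share of peaks (%) with a κB consensus in 3 lists, split by whether the peak centre lay within 2 kb of a coding start site or farther away; green bars are the peaks at the 10 NF-κB genes with exact 95% intervals, grey bars all peaks of the list. The bar for MAC PU.1 within 2 kb reaches 62.5% over a list value of 13.6%.

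Other consensus sequences were searched in the same peaks. The C/EBP consensus TTGCNNAA was present in 30 of 61 MAC C/EBPβ peaks (49.2%, 36.1 to 62.3%), against 41.9% of the list. The PU.1 consensus GAGGAAGT was present in 19 of 77 MAC PU.1 peaks (24.7%, 15.6 to 35.8%), against 24.4%, and in 3 of 14 HP PU.1 peaks (21.4%, 4.66 to 50.8%), against 42.1%. The AP-1 consensus TGANTCA was found in 15 of 61 MAC C/EBPβ peaks (24.6%, 14.5 to 37.3%) and 14 of 77 MAC PU.1 peaks (18.2%, 10.3 to 28.6%), against 23.3% and 15.8%. RUNX (TGTGGTT) was found in 4 peaks of each MAC list, 6.56% (1.82 to 15.9%) for C/EBPβ and 5.19% (1.43 to 12.8%) for PU.1, against 11.1% and 10.3%. The GATA letters AGATAA were found in 13 of 61 MAC C/EBPβ peaks (21.3%, 11.9 to 33.7%) and 17 of 77 MAC PU.1 peaks (22.1%, 13.4 to 33.0%), against 17.5% and 17.3%. Each of the intervals given for these 5 sequences contained the value of the whole list.

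**Figure D3:**
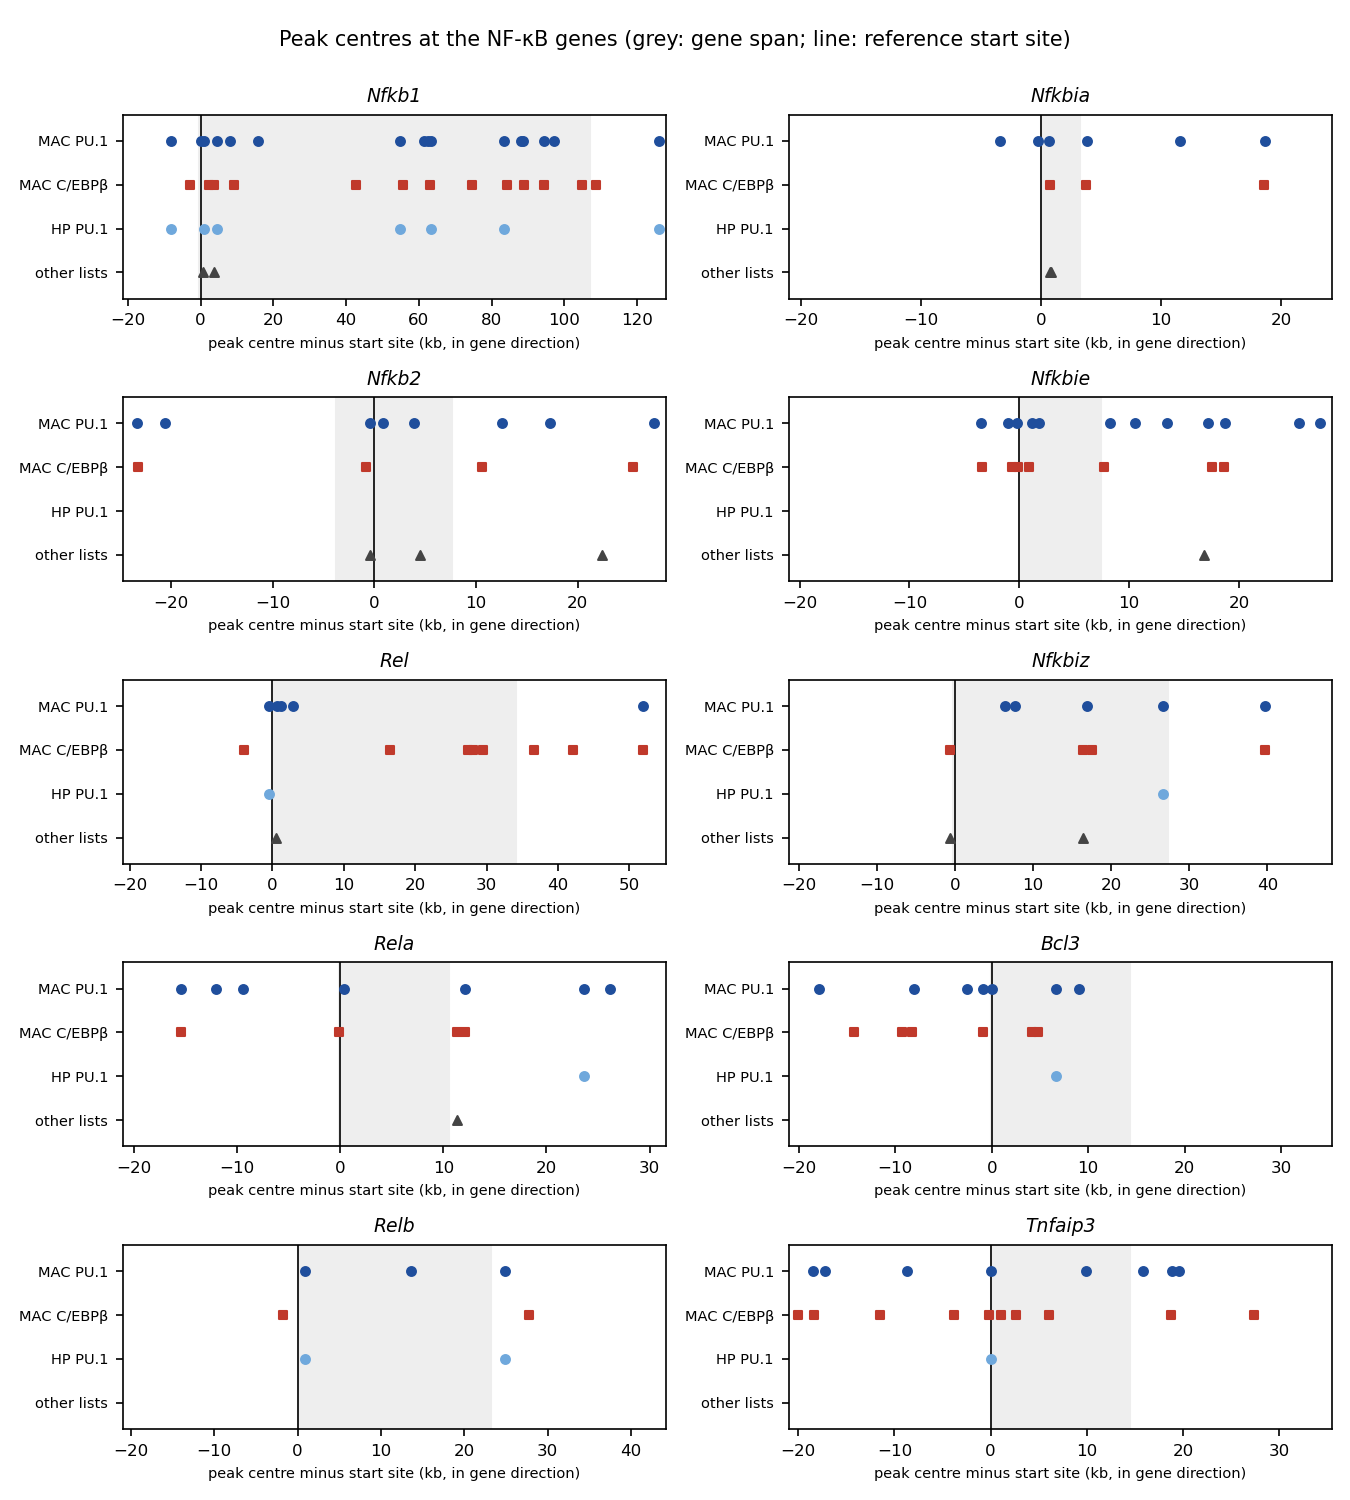
Positions of peak centres at each of the 10 genes, in kb from the reference start site in the direction of the gene; rows are MAC PU.1, MAC C/EBPβ, HP PU.1 and the other 11 lists, grey marks the gene span and the line the start site. At Nfkb1 the 7 HP PU.1 centres stand below MAC PU.1 centres, while Nfkb2, Nfkbia and Nfkbie have an empty HP PU.1 row.

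Nfkb1 encodes p105, the precursor of the subunit p50, which pairs with p65 in the classical pathway. The gene spans chr3:135584655-135691969 on the minus strand and is the longest of the 10, with a window of 147 kb. It had peaks in 5 lists, the most of the 10 genes: 16 for MAC PU.1, 13 for MAC C/EBPβ, 7 for HP PU.1, and 1 each for HP GFI1B and MES C/EBPβ. Its HP PU.1 count was above that of 99.7% of coding genes, and per 10 kb of window, 0.475 peaks, above 97.4%. The 7 HP PU.1 peaks all lay on MAC PU.1 peaks, at the promoter, upstream, in the gene body and at the neighbouring gene Manba. MAC C/EBPβ was intronic at 11 of 13 peaks, and the nearest to a start site was 2396 bp away. Its intronic MES C/EBPβ peak (chr3:135687535-135687934), 3813 bp downstream of the start, held a C/EBP match and lay on a MAC C/EBPβ peak. HP GFI1B (chr3:135690558-135690957) sat 790 bp downstream of the start, in the region chr3:135690494-135690957 that HP PU.1 and MAC PU.1 also occupied. A further region of 3 lists, chr3:135627957-135628731, was intronic, 63203 bp downstream of the start, and joined HP PU.1, MAC PU.1 and MAC C/EBPβ. The coding gene with the most similar counts over the 14 lists was Cttnbp2nl (13 MAC C/EBPβ, 15 MAC PU.1, 5 HP PU.1 and 2 HP GFI1B peaks), with differences summing to 5, and 7 genes followed at 6, among them Ets1 and Depdc5.

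Nfkb2 encodes p100, precursor of the p52 subunit of the alternative pathway, and spans chr19:46300994-46312400. It had 8 MAC PU.1 and 4 MAC C/EBPβ peaks and no HP PU.1 peak, and it was the member with HP RUNX1. The 2 HP RUNX1 peaks lay 429 bp from a start site (chr19:46304109-46304508) and in an exon 3325 bp from the nearest one (chr19:46309056-46309455). Neither held the RUNX letters, which were present in 26.2% of the whole HP RUNX1 list. The first peak was part of a region, chr19:46303755-46304508, with MAC PU.1 and MAC C/EBPβ. The HP GFI1B peak in its window (chr19:46326926-46327325) was 31 bp from the start of the neighbouring gene Psd, and it is counted for Nfkb2 by the window alone.

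Rel, which encodes c-Rel, a subunit prominent in blood cells, spans chr11:23736847-23770969. It was the only subunit gene with more MAC C/EBPβ than MAC PU.1 peaks, 8 against 5. Of the MAC PU.1 peaks 3 were within 2 kb of the start, whereas no MAC C/EBPβ peak was, the nearest being 3996 bp away. Only 1 of 8 MAC C/EBPβ peaks overlapped a MAC PU.1 peak. HP PU.1 lay 505 bp upstream of the start, on the MAC PU.1 peak with the κB match, and HP GFI1B (chr11:23770330-23770729) 440 bp downstream.

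Rela encodes p65, the main activating subunit, and spans chr19:5637442-5648134. It had 7 MAC PU.1 and 4 MAC C/EBPβ peaks. The HP C/EBPβ peak (chr19:5648644-5649043), 11302 bp from the start and past the end of the gene, held a C/EBP match and a κB match, and a MAC C/EBPβ peak overlapped it. Its HP PU.1 peak was 23636 bp from its own start and 2530 bp from that of Sipa1. Relb, partner of p52, spans chr7:19606217-19629438 and had the fewest peaks, 3 for MAC PU.1, 2 for MAC C/EBPβ and 2 for HP PU.1. It was the gene with no overlap between the MAC lists. Per 10 kb, Relb held 0.475 MAC PU.1 peaks, more than 46.8% of coding genes, and 0.316 MAC C/EBPβ peaks, more than 50.0%. Its HP PU.1 density, 0.316, exceeded that of 92.2% of coding genes and was below that of Nfkb1 alone among the 10. Of its HP PU.1 peaks, 1 lay 881 bp downstream of the start and 1 at the start of Clasrp, 29 bp away.

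**Figure D4:**
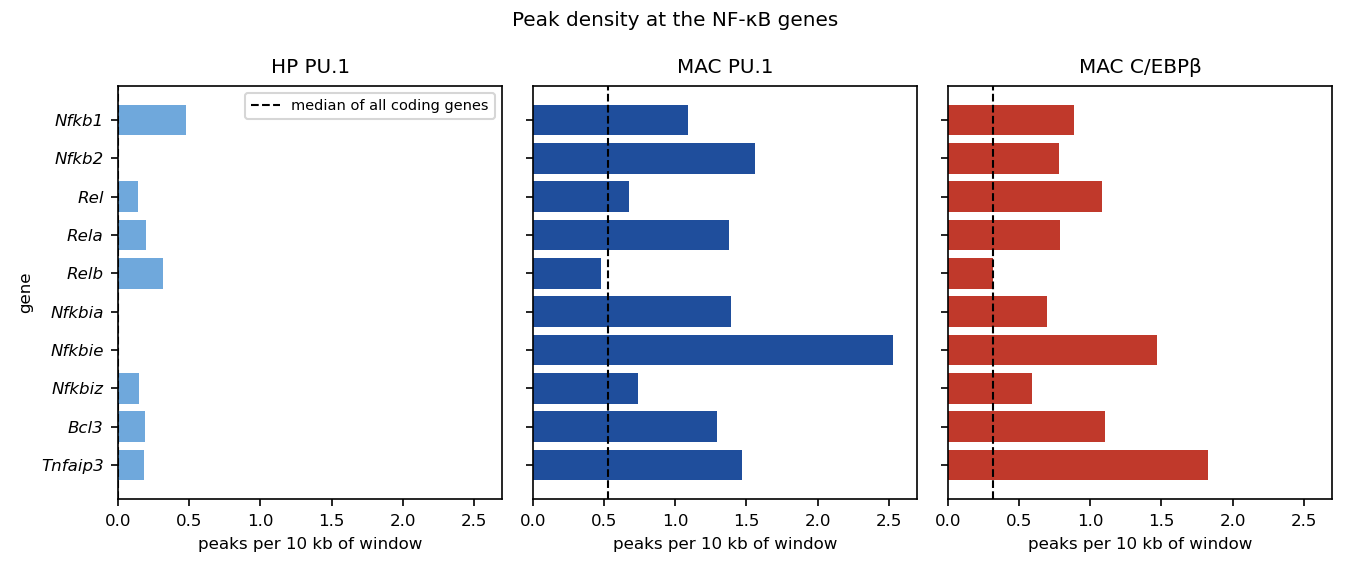
Peaks per 10 kb of window at each of the 10 genes for HP PU.1, MAC PU.1 and MAC C/EBPβ, with the median of all 21774 coding genes as a dashed line (0 for HP PU.1, 0.524 for MAC PU.1, 0.317 for MAC C/EBPβ). Nfkbie reaches 2.53 for MAC PU.1 and Tnfaip3 1.83 for MAC C/EBPβ, and Relb is the lowest in both MAC panels.

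Nfkbia encodes IκBα, the inhibitor that is degraded and resynthesised in the course of a response, and spans chr12:55489409-55492647. With 6 MAC PU.1 and 3 MAC C/EBPβ peaks in the shortest window, 43.2 kb, it had no other coding gene's start site nearby, and all of its peaks were nearest to its own. All 3 MAC C/EBPβ peaks overlapped a MAC PU.1 peak. The region found in the most lists, 4, lay here, in an intron at chr12:55491575-55492207, centred 756 bp downstream of the start. It joined MES C/EBPβ (chr12:55491700-55492099), HP C/EBPβ (chr12:55491575-55491974), MAC C/EBPβ (chr12:55491680-55492079) and MAC PU.1 (chr12:55491808-55492207). HB and HE C/EBPβ, which come between MES and HP, had no peak there. Their lists held 715 and 132 peaks, and a missing peak does not show that the site was unbound. Over the genome, 0.791% of all regions were in 4 lists. The central 200 bases are shown, because the C/EBPβ peaks of 3 stages overlap them. They were read from GRCm38 at chr12:55491792-55491991 on the plus strand, with the κB matches and the C/EBP match in capitals, the latter between the others.
Nfkbia region: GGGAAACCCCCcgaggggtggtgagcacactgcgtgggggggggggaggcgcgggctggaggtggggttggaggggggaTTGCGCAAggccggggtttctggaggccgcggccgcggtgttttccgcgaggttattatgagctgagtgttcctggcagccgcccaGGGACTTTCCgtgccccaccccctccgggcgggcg

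Nfkbie encodes IκBε and spans chr17:45555700-45563169. It held 12 MAC PU.1 and 7 MAC C/EBPβ peaks, and 6 of those 7 overlapped a MAC PU.1 peak, the most of the 10 genes. Its MAC PU.1 density, 2.53 peaks per 10 kb, exceeded that of 99.1% of coding genes, and its MAC C/EBPβ density, 1.47, that of 98.6%. The window also holds the start sites of Hsp90ab1, Slc35b2 and Tmem151b, and only 4 of the 12 MAC PU.1 and 3 of the 7 MAC C/EBPβ peaks were nearest to Nfkbie. The peaks near its start were 4 of MAC PU.1 and 3 of MAC C/EBPβ. The HP GFI1B peak (chr17:45572351-45572750) was 711 bp from the start of Hsp90ab1 and 16850 bp from that of Nfkbie, in a region with both MAC factors (chr17:45572351-45573454).

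Nfkbiz encodes IκBζ, a nuclear IκB that acts as a co-activator at secondary response genes, and spans chr16:55811375-55838954. It was the gene with 2 HP C/EBPβ peaks. These sat at different start sites, 1 at 610 bp upstream of the reference start (chr16:55839052-55839451) and 1 at 77 bp from an internal start (chr16:55822016-55822415), and both overlapped a MAC C/EBPβ peak. MAC C/EBPβ had 4 peaks, 3 of them near a start site. Of the 5 MAC PU.1 peaks 1 was near a start, the internal one, and 1 overlapped a MAC C/EBPβ peak. Bcl3, a nuclear IκB that partners p50 and p52 homodimers, spans chr7:19808462-19822824 and had 7 MAC PU.1, 6 MAC C/EBPβ and 1 HP PU.1 peak. A MAC PU.1 peak was centred 26 bp from its start, on the κB match printed above, and the HP PU.1 peak was intronic, 6697 bp downstream of the start, on a MAC PU.1 peak.

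Tnfaip3 encodes A20, the ubiquitin-editing enzyme that ends signalling to NF-κB, and spans chr10:19000910-19015410. It had more MAC C/EBPβ than MAC PU.1 peaks, 10 against 8, and 1 HP PU.1 peak. At 1.83 per 10 kb its MAC C/EBPβ density exceeded that of 99.8% of coding genes and was the highest of the 10. No other coding gene has its start in the window, and all 19 peaks were nearest to the Tnfaip3 start sites. Only 3 of the 10 MAC C/EBPβ peaks overlapped MAC PU.1. At the start itself, HP PU.1 (chr10:19015172-19015571) and MAC PU.1 (chr10:19015173-19015572) were 1 bp apart, and with a MAC C/EBPβ peak they formed the region chr10:19015172-19015799. The 250 bases before the start are shown from the RefSeq promoter table (GRCm38.p6, chr10:19015411-19015660), because peaks of these 3 lists overlap them. They run 5′ to 3′ along the gene, on the minus strand, and capitals mark 2 κB matches.
Tnfaip3 promoter: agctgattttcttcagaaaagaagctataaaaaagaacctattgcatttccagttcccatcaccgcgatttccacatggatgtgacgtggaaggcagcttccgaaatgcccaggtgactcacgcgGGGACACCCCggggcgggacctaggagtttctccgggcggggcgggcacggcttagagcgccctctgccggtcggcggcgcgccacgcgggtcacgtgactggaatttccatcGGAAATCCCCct

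Such promoter sequences were available for 7 of the 10 genes (Bcl3, Tnfaip3, Rel, Nfkbia, Nfkbie, Rela and Nfkb2). A κB match lay in the 250 bases upstream of a start for 5 of them, Nfkb2, Rel, Nfkbia, Nfkbie and Tnfaip3, against 8.23% of the 27025 genes in the table. Counted by single promoter, since Nfkb2 has 3 and Tnfaip3 2, a match lay in 7 of 10, against 7.25% of 32851. The second promoter of Tnfaip3, inside the gene, had none. Bcl3 and Rela had none in this window. The match at Rel began 92 bp before the start and that at Nfkbia 29 bp before it. No list had a peak over the 250 bases of Rel, while MAC PU.1 overlapped those of Nfkb2, Nfkbia, Nfkbie, Bcl3 and Tnfaip3. Such an overlap did not always cover the match. The match at Nfkbia and those before the most upstream start of Nfkb2 lay outside the MAC PU.1 peaks. No share of all promoters is given for this overlap.

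The 2 MAC factors shared part of their sites at these genes. Of the 61 MAC C/EBPβ peaks 23 overlapped a MAC PU.1 peak (37.7%, 25.6 to 51.0%), against 42.5% of the whole list, and of the 77 MAC PU.1 peaks 23 overlapped C/EBPβ (29.9%, 20.0 to 41.4%), against 28.5%. At least 1 shared site was found at 9 of the 10 genes, against 57.5% of coding genes. Of the MAC C/EBPβ peaks of the subunit genes, those shared were 3 of 13 at Nfkb1, 2 of 4 at Nfkb2, 1 of 8 at Rel, 2 of 4 at Rela and 0 of 2 at Relb. At the inhibitors and regulators they were 3 of 3 at Nfkbia, 6 of 7 at Nfkbie, 1 of 4 at Nfkbiz, 2 of 6 at Bcl3 and 3 of 10 at Tnfaip3. Of the 6 shared regions at Nfkbie, 3 were nearest to the start of Tmem151b or Hsp90ab1. The centres of overlapping pairs were 24 to 369 bp apart with a median of 103 bp, against a median of 65.0 bp over the whole list. Of the 23 regions with both factors, 6 held a κB match (26.1%), against 11.4% of 23606 such regions, and 9 held a C/EBP match (39.1%), against 36.6%. The 6 with a κB match lay at Nfkbia, Nfkbie and Tnfaip3 only, most of them within 2 kb of the start. No interval was computed for these shares.

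**Figure D5:**
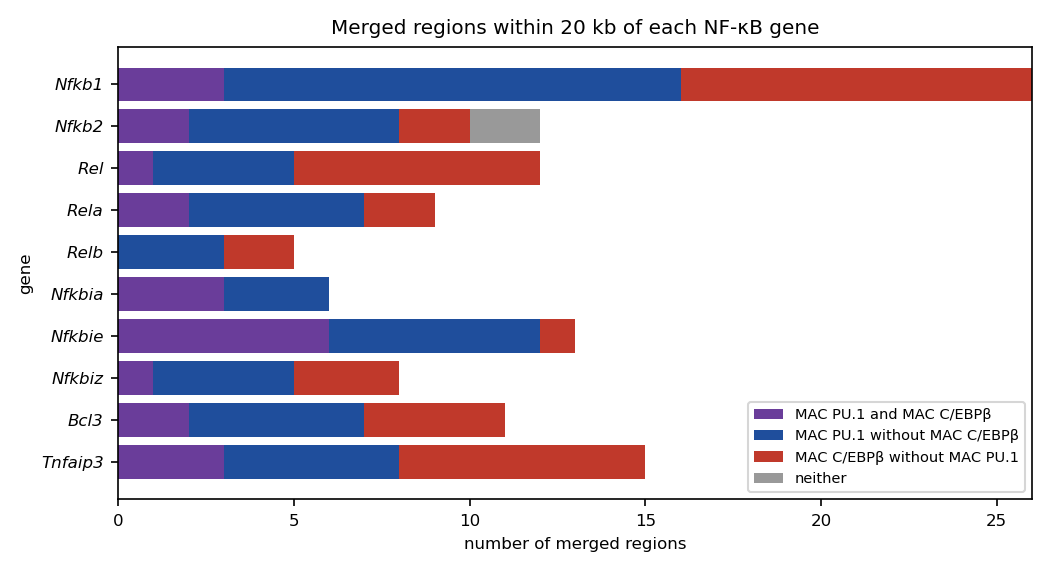
Number of merged regions at each of the 10 genes, split by whether they hold peaks of both MAC PU.1 and MAC C/EBPβ, of 1 of them, or of neither. Of 117 regions 23 hold both, 54 MAC PU.1 without MAC C/EBPβ, 38 MAC C/EBPβ without MAC PU.1 and 2 neither; Nfkbie has 6 with both and Relb 0.

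The peaks of the earlier stages were compared with those of macrophages. All 14 HP PU.1 peaks overlapped a MAC PU.1 peak (100%, 76.8 to 100%), close to the 97.0% of the whole HP PU.1 list, and they matched 14 of the 77 MAC PU.1 peaks (18.2%, 10.3 to 28.6%), against 12.8%. The 63 others were in the MAC PU.1 list alone of the 2, and at Nfkb2, Nfkbia and Nfkbie this held for every MAC PU.1 peak. Only 2 of the 14 HP PU.1 peaks overlapped a MAC C/EBPβ peak (14.3%, 1.78 to 42.8%), against 36.0% of that list. The 4 HP C/EBPβ peaks and the 2 MES C/EBPβ peaks lay on MAC C/EBPβ peaks, as did 91.4% and 66.4% of those lists. Of the 4 HP GFI1B peaks 3 overlapped a MAC PU.1 peak, against 39.0% of that list, and of the 2 HP RUNX1 peaks 1 did, against 62.8%. The exceptions were the exonic HP RUNX1 peak of Nfkb2 and the HP GFI1B peak at the start of Psd, which lay in neither MAC list. The 2 PU.1 lists, and the C/EBPβ lists, came from cells of the same line and with cutoffs set for each, so their lengths are not comparable.

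By place, 44 of the 164 peaks were within 2 kb of a start site of the gene they were assigned to, 39 in introns, 8 in exons, 27 upstream and 46 downstream. Counting start sites of any coding gene, 34.1% were within 2 kb, against 18.6% of all peaks, and the shares were 31.2% for MAC PU.1 (21.1 to 42.7%, against 18.1% of its list), 29.5% for MAC C/EBPβ (18.5 to 42.6%, against 16.4%) and 35.7% for HP PU.1 (12.8 to 64.9%, against 18.3%). The coding start site nearest to the peak was that of the assigned gene for 132 of 164 peaks (80.5%). Windows around genes contain start sites by construction, so these shares and those of whole lists are not over the same kind of regions.

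Most regions at these genes were found in a single list. Of the 117 regions, 40 (34.2%) were in 2 or more lists, against 28.0% of all regions, and 6 (5.13%) in 3 or more, against 5.44%. The median of the 10 genes was 7 MAC PU.1 peaks, 5 MAC C/EBPβ peaks and 1 HP PU.1 peak, against 4, 2 and 0 over all coding genes. Per 10 kb of window the medians were 1.33, 0.836 and 0.166, against 0.524, 0.317 and 0. In each MAC list 9 of the 10 genes were above the median of coding genes per 10 kb, the exception being Relb, which was also below it or equal to it in the counts themselves. The set of lists with a peak at Relb, Bcl3 and Tnfaip3 (HP PU.1 and both MAC factors) was shared by 17.0% of other coding genes, and that of Nfkb1 by 0.138%.

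The other genes of the pathway were described from a list of 36 that act upstream or alongside: 12 adaptors and receptor-proximal proteins, 11 kinases and subunits of kinase complexes, 11 proteins of the ubiquitin system, and 2 further IκB proteins. MAC PU.1 and MAC C/EBPβ peaks lay at 35 each (97.2%, against 79.1% and 73.8% of coding genes), all but Tab3, a subunit of the TAK1 kinase complex, whose single peak was of MES ELK4. HP PU.1 peaks lay at 21 (58.3%, against 38.2%), with 8 of 11 in the kinase group, 7 of 12 in the adaptor group and 5 of 11 in the ubiquitin group. HP C/EBPβ peaks lay at 8 (22.2%, against 14.8%), HP RUNX1 at 6 (16.7%, against 7.79%) and MES C/EBPβ at 4 (11.1%, against 6.47%). MES ELK4, HB C/EBPβ and HP GFI1B peaks lay at 2 genes each (5.56%), against 4.66%, 4.24% and 11.8%. GATA1 and GATA2 in HP lay at 1 each (2.78%), against 1.75% and 3.36%. The median was 7.50 MAC PU.1, 5 MAC C/EBPβ and 1 HP PU.1 peaks, and 32 of 36 (88.9%, against 57.5%) had a site with both MAC factors. The most peaks were at Irak2, a mediator of Toll-like receptor signalling, with 22 of MAC PU.1 and 22 of MAC C/EBPβ, of which 13 overlapped. Next came Map3k14, the kinase of the alternative pathway, with 29 peaks over all lists, and Tnip1, which binds A20, with 27. The medians of the 36 genes and of the 10 were both above those of coding genes in the MAC lists and HP PU.1, and no difference between them was tested.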

How the data were processed

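The deposited files give the chromosome, start and end of each peak, positions with no score. According to the methods, the authors aligned reads to mm10 with Bowtie, called peaks with MACS against input with a cutoff chosen by eye, refined them with polyPeak and set each to 400 bp around its summit. Some libraries combined technical runs. The sources used here give no version of these tools, and read depth was not used. Here, positions were compared with RefSeq GRCm38.p6, the same build; 1 peak lay off chromosomes 1 to 19, X and Y. Windows were gene spans with 20 kb on each side; backgrounds count 21774 coding genes by the same rule, and near a start site means within 2 kb of a curated TSS. Intervals (95%) of shares are Clopper-Pearson ones. The C/EBP, PU.1, RUNX, GATA and AP-1 letters and the κB consensus were searched on both strands, and matches that overlap count as 1 place. Members, lists and rules were chosen with earlier results of these data known. All 10 genes, peaks in the 11 smaller lists, and regions in 3 or more lists are named. The start-site κB count and the split by distance were added after values were seen. Alternatives were other window widths, overlaps, start-site distances and consensus forms. Python 3.11.15, NumPy 2.4.6, SciPy 1.17.1 and Matplotlib 3.10.9 were used, and overlap and merging steps were tested on simulated data.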

Additional observations from a re-analysis of the deposited data

How the results depend on the processing

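The number of peaks assigned to the 10 genes moved with the window, from 164 to 81 with the gene span alone and to 276 with 50 kb on each side. The counts of genes with a peak in the 4 longest lists and in the other 10 together stayed within 1.5 times under the alternatives run. So did the number of filled combinations of gene and list. The shares of MAC C/EBPβ and of HP PU.1 peaks on MAC PU.1, and of MAC PU.1 and MAC C/EBPβ peaks near start sites or with a κB match, stayed within their intervals. Other overlaps and the other consensus sequences were not repeated, nor were the κB shares of HP PU.1 or the split by distance for MAC C/EBPβ. HP PU.1 was found at 5 genes with the gene span alone (20.2% of coding genes) and at 9 with 50 kb on each side (53.0%). After the values were seen, the start-site κB count was also repeated. It was 10 of 10 genes with a stricter consensus (5.62% of coding genes), 10 within 1 kb (7.81%), and 8 in the central 200 bp of the peak (5.52%). With the same changes, the κB share of MAC PU.1 peaks near start sites was 54.2%, 68.4% and 45.8% (7.77%, 14.5% and 7.60% of the list), and farther away 3.77%, 8.62% and 3.77% (4.87%, 8.31% and 4.61%). No paired analysis was possible because each factor and stage has 1 list and no result comes from a test. Neither depth nor peak height was used, so weak sites cannot be told apart from unbound ones.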
